A study of Rattus norvegicus with 34 samples.

Results

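The genes described here encode the non-collagen scaffold of the extracellular matrix: elastic fibres and their microfibrils, latent TGF-beta binding proteins, small and large proteoglycans, hyaluronan synthases, basement membrane proteins, cell surface proteoglycans and adhesive glycoproteins. The 52 genes were chosen by name, and a gene was taken as measured where the platform annotation gives its symbol, alone, to a row of the deposited table. This held for 46 of the 52, each with 1 transcript cluster, the array's unit for a gene, among the 29214 of the whole table. Emilin2, Lama2, Lama4, Lamb1, Nid1 and Hspg2 had no such row and are not analysed here, so 5 of the 11 basement membrane genes are missing.

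Male Wistar rats underwent ligation of the proximal left coronary artery, which infarcts the left ventricle (LV), or a sham operation in which the suture was left untied. RNA was taken 2 months later, and each array holds the RNA of 1 tissue of 1 rat. The LV arrays come from 5 rats with large (L-MI), 6 with moderate (M-MI) and 6 with small (S-MI) infarcts and from 6 sham-operated rats. Peripheral blood mononuclear cells (PBMCs) were taken from 5 rats with L-MI and 6 sham-operated rats. Sham-operated rats gave the whole LV, whereas infarcted rats gave only LV tissue free of visible scar, so infarct and sampled region cannot be told apart. For L-MI replicate 1 of either tissue the description names a compensated injury, whereas its title and infarct size class say L-MI and the other 4 L-MI arrays are described as heart failure. Both arrays were kept as L-MI, and counts without them are given below.

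As background, elastic fibres consist of a core of elastin laid on a scaffold of fibrillin microfibrils and let a tissue recoil after stretch. Small leucine-rich proteoglycans bind collagen fibrils and set their width and spacing, whereas large proteoglycans such as versican bind hyaluronan into a swollen gel. Laminins and nidogens form the basement membrane that wraps each cardiomyocyte and capillary, and latent TGF-beta binding proteins store the growth factor that drives matrix synthesis by fibroblasts.

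All values are log2 signals after robust multiarray averaging (RMA), so a difference of 1 is a doubling. A signal depends on the probes of its transcript cluster, and therefore levels of different genes are not compared. Medians of the LV arrays ran from 6.52 to 6.61 and those of the PBMC arrays from 6.97 to 7.01, and the tissues were apparently normalized apart. Cardiomyocyte markers (8 genes) averaged between 13.11 and 13.24 in the LV arrays and B cell markers (3 genes) between 11.06 and 11.56 in the PBMC arrays, against 6.15 to 6.29 and 5.42 to 5.80 for the same lists in the other tissue, so the tissue labels fit the markers. In LV a gene was called altered where its fold change reached 1.3 and its adjusted p (Benjamini-Hochberg, over all transcript clusters) did not exceed 0.05 in 1 limma fit of the 23 LV arrays.

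In LV of rats with L-MI, 26 of the 46 genes were called higher than in sham, against 2.08% of all transcript clusters, and 1 gene, Vtn, was called lower, against 1.14%. The rise spread over elastic microfibrils, small and large proteoglycans and fibronectin, whereas most basement membrane and cell surface proteoglycan genes were not called. The log2 fold change was above 0 in 41 of 46 genes (48% of all transcript clusters), with a median of 0.45, against -0.01 over all transcript clusters. The largest rises were those of Fn1 (2.95-fold), Ltbp2 (2.64-fold), Mfap5 (2.31-fold), Fbn1 (2.25-fold), Vcan (2.22-fold) and Bgn (2.22-fold). A further 6 genes (Ltbp4, Dcn, Lama5, Sdc1, Gpc1 and Dpt) had an adjusted p of at most 0.05, all higher, but a fold change under 1.3. In 26 genes every L-MI array lay above every sham array, against 3.1% of all transcript clusters, and in 2 (Vtn and Nid2) below, against 3.87%. In 16 genes all 5 L-MI arrays lay above all 18 arrays of the S-MI, M-MI and sham groups, against 1.09% of all transcript clusters, and Vtn lay below all 18, against 0.835%. Without L-MI replicate 1, 25 genes were called. In sham, Fbn2 (5.57), Has1 (5.41), Lama3 (5.65), Acan (6.08), Hapln1 (5.37) and Fmod (6.21) averaged below the medians of the LV arrays (6.52 to 6.61). Whether LV of sham-operated rats expresses these genes was not tested. Since LV tissue was measured in bulk, more cells of a type and more RNA per cell cannot be told apart in any of these values.

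**Figure D1:**
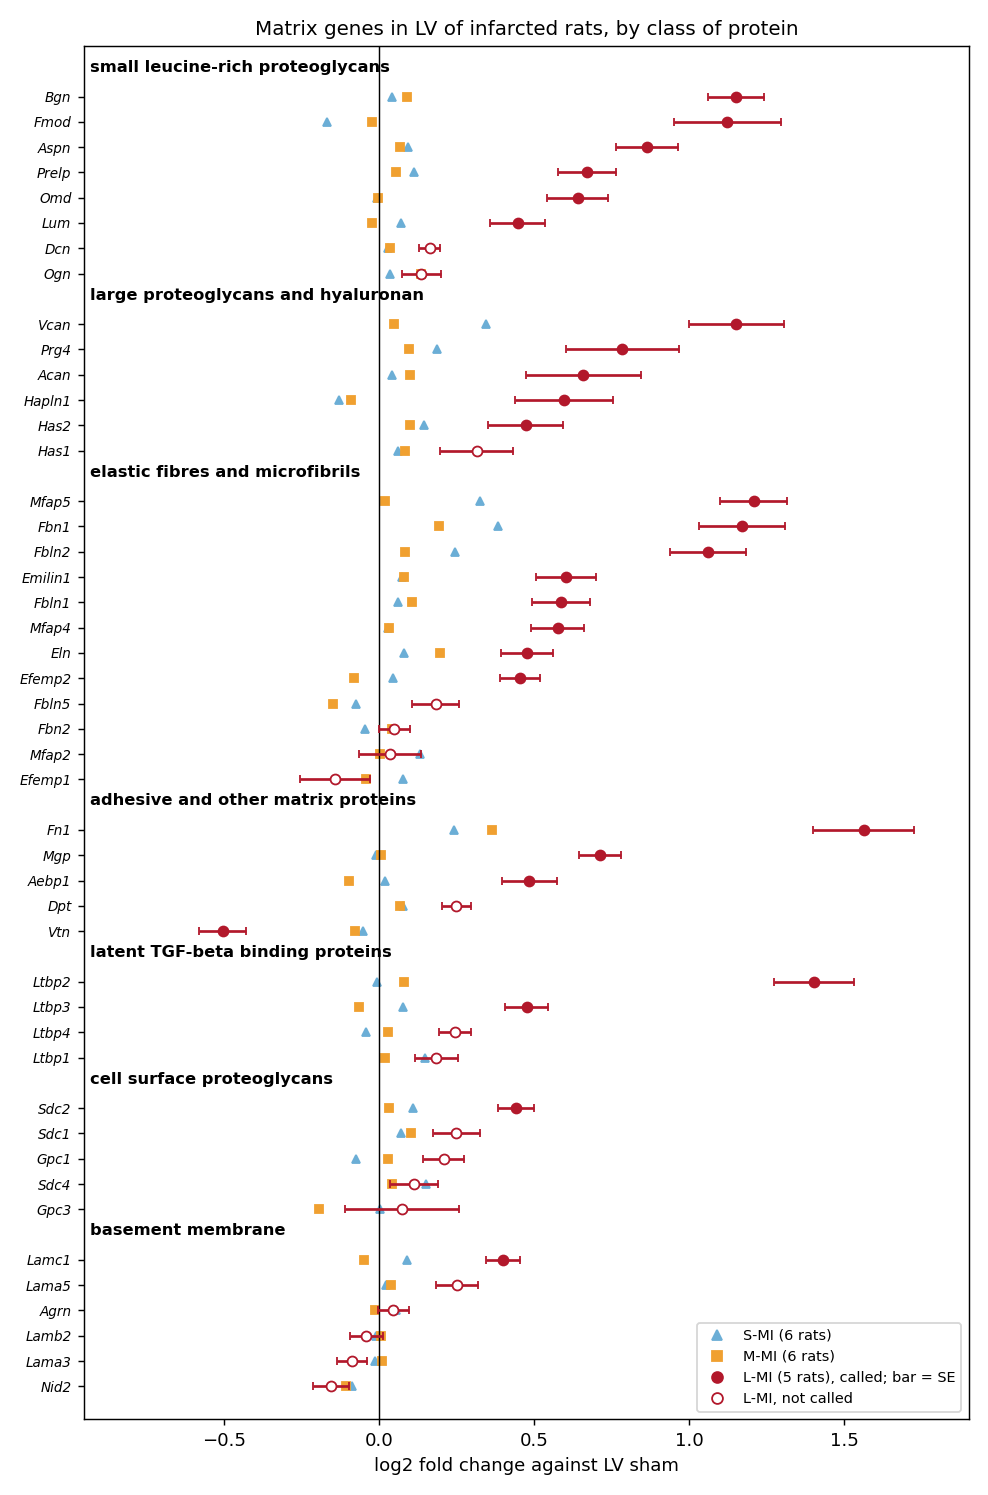
Log2 fold change of the 46 measured matrix genes in LV against sham, by class of protein, with circles for L-MI (bar, SE; filled where called), squares for M-MI and triangles for S-MI. The L-MI values reach 1.56 (Fn1) and all S-MI and M-MI values lie between -0.19 and 0.39.

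Promoter windows from RefSeq (build GRCr8, 250 bases before to 50 bases after the transcription start) were found for 32 of the 46 genes, 16 of them among the 26 called higher. They are shown for the latent TGF-beta binding protein and the microfibril gene with the largest rises, for the only gene called lower, and for 3 neighbouring proteoglycan genes of which 2 rose. Capitals mark 4 motifs searched on both strands. The first is TATAAA, known as the TATA box. The second is TGACTCA, the site of the AP-1 factors, and the third is CATTCC, the site of the TEAD factors. The last is GGGCGG, the GC box of the Sp1 factors. In the Ogn window the first motif matches both strands at overlapping positions.
Ltbp2, chr6:110257249-110257548, minus strand: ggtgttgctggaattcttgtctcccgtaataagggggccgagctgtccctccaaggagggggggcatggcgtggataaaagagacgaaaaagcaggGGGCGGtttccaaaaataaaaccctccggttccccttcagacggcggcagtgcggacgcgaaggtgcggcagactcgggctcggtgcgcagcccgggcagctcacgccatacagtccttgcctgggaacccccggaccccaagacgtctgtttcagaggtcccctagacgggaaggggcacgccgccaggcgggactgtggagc
Mfap5, chr4:157399669-157399968, plus strand: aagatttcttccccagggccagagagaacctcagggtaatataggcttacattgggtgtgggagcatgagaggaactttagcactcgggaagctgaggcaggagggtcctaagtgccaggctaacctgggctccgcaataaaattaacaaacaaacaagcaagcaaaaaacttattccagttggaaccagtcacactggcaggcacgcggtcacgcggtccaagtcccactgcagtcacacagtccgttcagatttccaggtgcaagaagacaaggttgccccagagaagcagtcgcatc
Aspn, chr17:15310420-15310719, minus strand: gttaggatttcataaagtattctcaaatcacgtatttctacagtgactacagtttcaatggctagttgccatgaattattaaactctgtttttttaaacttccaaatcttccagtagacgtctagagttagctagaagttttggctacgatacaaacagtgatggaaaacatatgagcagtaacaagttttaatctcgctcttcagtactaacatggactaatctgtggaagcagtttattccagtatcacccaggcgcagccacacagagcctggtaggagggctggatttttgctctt
Omd, chr17:15274821-15275120, minus strand: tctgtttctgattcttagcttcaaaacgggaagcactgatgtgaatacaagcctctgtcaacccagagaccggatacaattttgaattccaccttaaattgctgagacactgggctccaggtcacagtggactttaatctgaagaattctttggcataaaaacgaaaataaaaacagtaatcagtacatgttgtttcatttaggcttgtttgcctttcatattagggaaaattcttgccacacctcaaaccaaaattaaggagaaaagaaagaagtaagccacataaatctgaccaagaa
Ogn, chr17:15258946-15259245, minus strand: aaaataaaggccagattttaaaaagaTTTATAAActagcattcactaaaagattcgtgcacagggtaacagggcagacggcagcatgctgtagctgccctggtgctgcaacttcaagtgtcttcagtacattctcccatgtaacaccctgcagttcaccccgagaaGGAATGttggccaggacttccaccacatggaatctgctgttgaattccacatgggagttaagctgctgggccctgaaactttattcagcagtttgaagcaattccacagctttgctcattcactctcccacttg
Vtn, chr10:63892532-63892831, plus strand: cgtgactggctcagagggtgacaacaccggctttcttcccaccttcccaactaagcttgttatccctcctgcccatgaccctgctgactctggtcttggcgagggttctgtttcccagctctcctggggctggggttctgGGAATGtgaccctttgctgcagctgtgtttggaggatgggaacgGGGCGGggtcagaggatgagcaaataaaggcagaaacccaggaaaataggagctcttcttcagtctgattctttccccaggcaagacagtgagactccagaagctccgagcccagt

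Of these windows, those of Mfap5, Aspn and Omd held none of the 4 motifs. GGGCGG stood in 9 of the 16 windows of genes called higher, in 18 of the 32 of all measured genes and in 33.1% of all 33469 windows of the reference. TATAAA stood in 1 of the 16 (Prg4), in 3 of the 32 and in 14.2% of all windows. CATTCC stood in 2 (Acan and Lamc1), in 6 and in 14.2%, and TGACTCA in 0, in 1 and in 4.63%. Each measured gene was counted by its first window only, whereas the shares of all windows take every window of the reference. The counts and shares are therefore of unlike units, and their difference was not tested. A match of these letters is a description of the window and not a binding site.

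Elastic fibres and microfibrils rose in 8 of 12 measured genes, with a median log2 fold change of 0.53. Mfap5, a microfibril-associated glycoprotein, gave 10.62, 10.05, 10.18, 10.22 and 10.41 in L-MI, against a lowest, median and highest value of 8.96, 9.06 and 9.32 in sham. It rose by 1.21 ± 0.11 (log2 fold change ± SE, adjusted p = 4.76e-07). All 5 L-MI values lay above all sham values. Fbn1, which encodes fibrillin-1, the main protein of microfibrils, gave 9.83, 9.01, 9.32, 9.59 and 9.63 in L-MI, against 8.11, 8.28 and 8.53 (lowest, median, highest) in sham, a rise of 1.17 ± 0.14 (adjusted p = 1.11e-05). Fbln2, encoding fibulin-2, gave 9.58, 8.80, 9.63, 9.34 and 9.59 in L-MI, against 8.18, 8.35 and 8.46 in sham, a rise of 1.06 ± 0.12 (adjusted p = 8.31e-06). In both genes the groups did not overlap, and L-MI replicate 2 was the lowest of its group.

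Eln, the gene of elastin, gave 8.32, 7.91, 7.96, 8.19 and 8.05 in L-MI, against 7.40, 7.64 and 7.69 in sham, a rise of 0.48 ± 0.08 (adjusted p = 0.000461), without overlap. Emilin1 (0.60) and Mfap4 (0.58), which lie at the surface of elastic fibres, Fbln1 (0.59), and Efemp2 (0.46), the fibulin needed to assemble them, also rose on the log2 scale. Without L-MI replicate 5 the rise of Efemp2 was 0.38, under the fold threshold. Fbln5, another assembly factor, had a log2 fold change of 0.18 and was not called, nor were Fbn2 (0.05), the second fibrillin, Mfap2 (0.04), a relative of Mfap5, and Efemp1 (-0.14). Mfap2 averaged 7.92 ± 0.20 in L-MI and 7.88 ± 0.15 in sham (SD, n = 5 and 6).

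Among the latent TGF-beta binding proteins, 2 of 4 were called higher (median log2 fold change 0.36). Ltbp2, which sits on microfibrils and, unlike its relatives, does not bind latent TGF-beta, gave 8.06, 7.43, 7.98, 7.73 and 8.51 in L-MI, against 6.22, 6.59 and 6.69 in sham, a rise of 1.40 ± 0.13 (adjusted p = 6.17e-07). Its lowest L-MI value lay 0.74 above its highest sham value. Ltbp3, which does bind latent TGF-beta, gave 8.86, 8.37, 8.67, 8.52 and 8.87 in L-MI, against 8.08, 8.19 and 8.24 in sham, a rise of 0.48 ± 0.07 (adjusted p = 9.66e-05). Ltbp4 differed by 0.25 ± 0.05 (adjusted p = 0.00264) with all L-MI values above sham, but its fold change of 1.19 was under the threshold. Ltbp1 had a log2 fold change of 0.19 and was not called.

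Small leucine-rich proteoglycans had the highest median of the 7 classes, 0.66 on the log2 scale, and 6 of 8 were called higher. Bgn, encoding biglycan, gave 12.24, 11.77, 12.03, 12.03 and 12.38 in L-MI, against 10.81, 10.96 and 11.03 in sham, a rise of 1.15 ± 0.09 (adjusted p = 1.13e-07). Aspn, encoding asporin, gave 10.69, 10.47, 10.74, 10.23 and 10.72 in L-MI, against 9.58, 9.67 and 9.88 in sham, a rise of 0.86 ± 0.10 (adjusted p = 7.01e-06). Prelp, a collagen-binding member with a basic end, gave 11.71, 10.997, 11.24, 11.33 and 11.56 in L-MI, against 10.46, 10.71 and 10.85 in sham, a rise of 0.67 ± 0.09 (adjusted p = 5.87e-05). None of these 3 genes overlapped between L-MI and sham.

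Members of this class lie side by side in the rat genome. Ogn, Omd and Aspn are consecutive protein-coding genes on chromosome 17 in GRCr8, Dcn and Lum on chromosome 7, and Prelp and Fmod on chromosome 13. Omd, encoding osteomodulin, gave 7.71, 7.45, 7.33, 7.38 and 7.79 in L-MI, against 6.62, 6.89 and 7.10 in sham, a rise of 0.64 ± 0.10 (adjusted p = 0.000144). Ogn, encoding osteoglycin, averaged 12.22 ± 0.05 in L-MI and 12.09 ± 0.10 in sham (SD, n = 5 and 6) and was not called, next to Omd and Aspn, which rose. Dcn, encoding decorin, differed by 0.16 (adjusted p = 0.00210, fold change 1.12) and Lum, encoding lumican, rose by 0.45 on the log2 scale, or by 0.37, under the fold threshold, without L-MI replicate 1. Fmod, encoding fibromodulin, rose by 1.12, with L-MI values of 7.54, 7.20, 6.94, 6.83 and 8.15, against 5.97, 6.22 and 6.54 in sham.

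Of the genes of large proteoglycans and hyaluronan, 5 of 6 were called higher, with a median of 0.63. Vcan, encoding versican, gave 9.37, 8.59, 8.79, 9.11 and 9.19 in L-MI, against 7.67, 7.88 and 8.004 in sham, a rise of 1.15 ± 0.15 (adjusted p = 3.51e-05), without overlap. Its neighbour on chromosome 2, Hapln1, encodes the link protein that fixes versican to hyaluronan and rose by 0.60, but its L-MI value in replicate 3, 5.08, lay below all sham values (5.09 to 5.603). Without L-MI replicate 5 its log2 difference was 0.51 and not called (adjusted p = 0.0605). Prg4, the lubricant proteoglycan of joints, gave 8.41, 7.33, 7.70, 7.61 and 7.97 in L-MI, against 6.78, 7.03 and 7.21 in sham, a rise of 0.78 ± 0.18 (adjusted p = 0.00589). Has2, the main hyaluronan synthase of the heart, gave 7.78, 7.09, 7.30, 7.46 and 7.70 in L-MI, against 6.83, 7.01 and 7.16 in sham, a rise of 0.47 ± 0.12 (adjusted p = 0.0131). One L-MI value of Has2 lay within the sham range, and without L-MI replicate 1 the rise was 0.40 and no longer called (adjusted p = 0.0545). Acan, encoding aggrecan, rose by 0.66 (adjusted p = 0.0251) with L-MI values between 5.92 and 7.70, against 5.95 to 6.23 in sham. The highest came from L-MI replicate 5, and without that array the log2 difference was 0.42 and not called (adjusted p = 0.0671). The call of Acan was also lost without L-MI replicate 2 or 4 or sham replicate 4 or 6, with adjusted p between 0.0504 and 0.0671 over these 5 arrays. Has1 (0.32, adjusted p = 0.102) was not called.

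Of the 6 measured basement membrane genes 1 was called, and the median log2 fold change was 0.00. Lamc1, the gamma chain shared by most laminins, gave 10.85, 10.61, 10.84, 10.87 and 10.83 in L-MI, against 10.34, 10.39 and 10.48 in sham, a rise of 0.40 ± 0.06 (adjusted p = 4.97e-05), without overlap. Its fold change of 1.32 was close to the threshold. Lama5, a laminin alpha chain, differed by 0.25 ± 0.07 (adjusted p = 0.0169, fold change 1.19). Nid2, encoding nidogen-2, which links laminin to type IV collagen, averaged 7.56 ± 0.08 in L-MI and 7.71 ± 0.09 in sham (SD, n = 5 and 6), a difference of -0.15 ± 0.06 (adjusted p = 0.0982). The log2 fold changes of Lamb2 (-0.04), a laminin beta chain, Lama3 (-0.09) and Agrn (0.05), encoding agrin, lay within 0.10 of 0. Whether the classes differ from each other was not tested.

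Of the cell surface proteoglycans, which carry heparan sulphate and present growth factors to receptors, 1 of 5 was called. Sdc2, encoding syndecan-2, gave 10.53, 10.32, 10.37, 10.51 and 10.67 in L-MI, against 9.91, 10.05 and 10.10 in sham, a rise of 0.44 ± 0.06 (adjusted p = 3.52e-05). Sdc1 (0.25 ± 0.08, adjusted p = 0.0366) and the glypican gene Gpc1 (0.21 ± 0.07, adjusted p = 0.0463) differed by less than the fold threshold. Sdc4 (0.11) and Gpc3 (0.07) were not called.

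The adhesive and other proteins held both the largest rise and the only gene called lower. Fn1, encoding fibronectin, a plasma and tissue glycoprotein that binds integrins and collagen, gave 10.11, 9.58, 9.997, 10.08 and 10.57 in L-MI, against 8.31, 8.52 and 8.63 in sham, a rise of 1.56 ± 0.16 (adjusted p = 2.35e-06). Vtn, encoding vitronectin, the other main adhesive glycoprotein of plasma, gave 9.04, 9.23, 9.05, 9.05 and 9.15 in L-MI, against 9.44, 9.62 and 9.71 in sham, and fell by 0.50 (SE 0.07, adjusted p = 0.000101). The groups overlapped in neither gene, and the fold change of Vtn was 0.71. Mgp, an inhibitor of calcification, gave 11.93, 11.62, 11.69, 11.68 and 11.77 in L-MI, against 10.93, 11.01 and 11.18 in sham, a rise of 0.71 ± 0.07 (adjusted p = 8.10e-07). Aebp1, which binds fibrillar collagen, rose by 0.48, or by 0.37, under the fold threshold, without L-MI replicate 5, and Dpt, encoding dermatopontin, differed by 0.25 (adjusted p = 0.00106) at a fold change of 1.19.

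**Figure D2:**
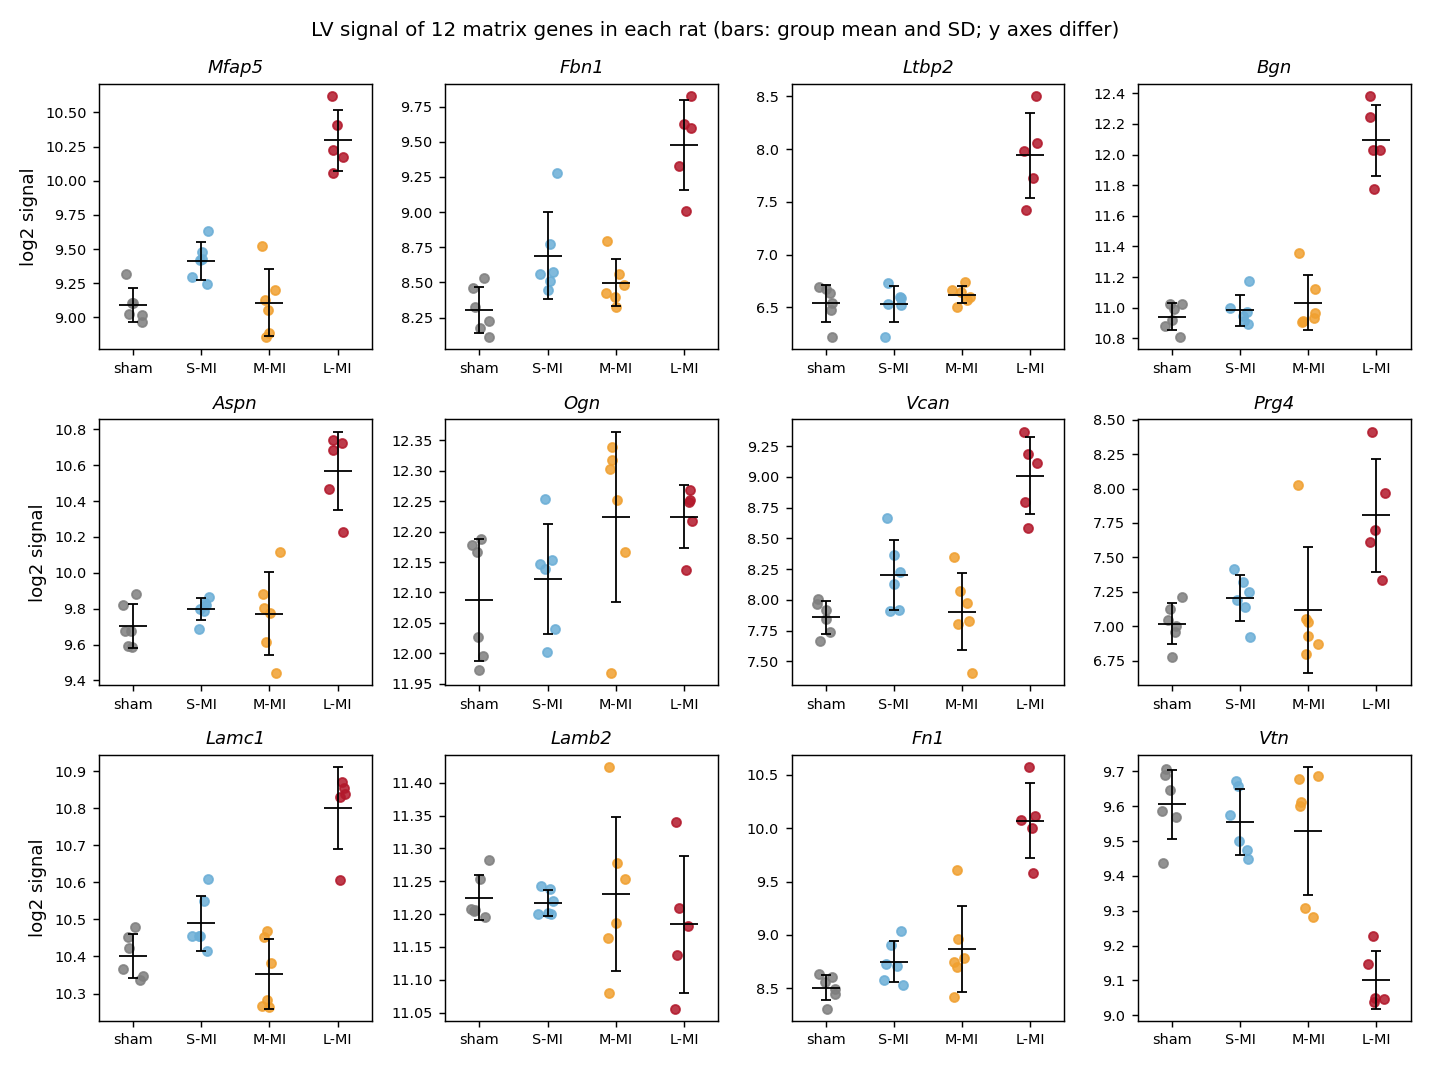
Log2 signal of 12 matrix genes in each LV array by infarct size, with group mean and SD (6 rats each for sham, S-MI and M-MI, 5 for L-MI). In Ltbp2 the L-MI arrays lie between 7.43 and 8.51 and the sham arrays between 6.22 and 6.69, and Vtn lies lower in L-MI (9.04 to 9.23) than in sham (9.44 to 9.71), whereas L-MI and sham overlap in Lamb2 and Ogn.

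With small and moderate infarcts none of the 46 genes was called in LV (limma, adjusted p), nor was any transcript cluster of the table (0%). The median log2 fold change was 0.03 in M-MI and 0.06 in S-MI. At an unadjusted p of at most 0.05, 5 genes were higher and 0 lower in S-MI, against 3.56% and 2.77% of all transcript clusters, and 3 were higher and 1 lower in M-MI, against 3.21% and 3.81%. The 5 in S-MI were Fbn1 (0.39, 95% interval 0.11 to 0.66), Mfap5 (0.33, 0.11 to 0.54), Vcan (0.34, 0.04 to 0.65), Fbln2 (0.25, 0.00 to 0.49) and Ltbp1 (0.15, 0.01 to 0.29). Those in M-MI were Fn1 (0.36, 0.04 to 0.68), Eln (0.20, 0.03 to 0.36), Ogn (0.14, 0.01 to 0.26) and Fbln5 (-0.15, -0.29 to -0.00). Adjusted p lay between 0.579 and 0.785 for these genes.

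These genes overlapped with sham in single arrays. Fbn1 gave 8.44, 8.57 and 9.28 (lowest, median, highest) in S-MI and 8.33, 8.45 and 8.80 in M-MI, against 8.11, 8.28 and 8.53 in sham, and the highest S-MI value came from replicate 1. Mfap5 gave 9.24, 9.42 and 9.63 in S-MI and 8.86, 9.09 and 9.52 in M-MI, against 8.96, 9.06 and 9.32 in sham. Fn1 gave 8.53, 8.72 and 9.04 in S-MI and 8.41, 8.76 and 9.61 in M-MI, against 8.31, 8.52 and 8.63 in sham. The highest M-MI value of Fn1 and that of Prg4 (8.03) came from the same array, replicate 4, in which Prg4 lay above all sham and S-MI arrays. Without it the log2 difference of Fn1 was 0.22 (95% interval -0.05 to 0.48) and that of Prg4 -0.08, against 0.10 with it. Efemp1 (9.72 and 9.68) and Gpc3 (7.07 and 7.46), both named after their values were seen, were highest among the S-MI arrays in replicates 2 and 6. There mesothelial markers (4 genes) averaged 7.29 and 7.49, against 6.09 to 6.51 in the other S-MI arrays. Among the sham arrays these markers were highest in replicates 6 (7.02) and 3 (6.94), where Gpc3 gave 6.92 and 6.41 and Efemp1 9.23 and 9.43. The part of these markers in the values was not tested.

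Set directly against the smaller infarcts, L-MI differed much as it did from sham, although the 3 comparisons share the L-MI arrays. Against M-MI, 23 genes were called higher (1.99% of all transcript clusters) and 1 lower (0.695%), and against S-MI, 22 higher (1.57%) and 1 lower (0.911%). In all, 21 genes were called in all 3 comparisons, against 1.67% of all transcript clusters. Ltbp2 was higher in L-MI than in M-MI by 1.32 ± 0.13 (adjusted p = 1.38e-06) and than in S-MI by 1.41 ± 0.13 (adjusted p = 8.33e-07). Fbn1 was higher by 0.98 ± 0.14 against M-MI (adjusted p = 8.50e-05) and by 0.79 ± 0.14 against S-MI (adjusted p = 0.000976). Has2 was called in neither (adjusted p = 0.0620 and 0.105), and Vtn was lower in both (-0.43 and -0.45). Lamc1, Lum and Sdc2 were called only against M-MI, and Eln and Acan only against S-MI. Without L-MI replicate 2, Has2 was called in both (adjusted p = 0.0135 and 0.0258), and against M-MI also without M-MI replicate 5. Lum was called against S-MI too when any of 6 of the 23 arrays was left out. Against M-MI, Fbln5 was called without M-MI replicate 5 or L-MI replicate 4, and Acan without L-MI replicate 3. Several calls near the thresholds were lost when 1 array was left out: against S-MI, Acan with any of 14, Prg4 with any of 13 and Eln with any of 4 of the 23 arrays, Ltbp3 with L-MI replicate 1 or 5, and Efemp2 and Aebp1 with L-MI replicate 5. Against M-MI, Prg4 was lost without L-MI replicate 1 or 5 or M-MI replicate 1, and Sdc2 without L-MI replicate 5. Between M-MI and S-MI 0 genes were called (0% of all transcript clusters), and at an unadjusted p of at most 0.05 3 were lower in M-MI (Mfap5, Ltbp3 and Lamc1) and 0 higher, against 6.54% and 5.94% of all.

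The L-MI arrays differed among themselves in how far these genes lay from sham. The median over the 46 genes of the difference from the sham mean was 0.49, 0.22, 0.31, 0.44 and 0.61 in L-MI replicates 1 to 5, against -0.03 to 0.05 in the M-MI, 0.00 to 0.08 in the S-MI and -0.03 to 0.03 in the sham arrays. Of the 26 genes called higher, L-MI replicate 2 had the lowest L-MI value in 20, replicate 1 the highest in 12 and replicate 5 in 10. Replicate 1, described as compensated, thus lay among the 2 highest L-MI arrays.

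**Figure D3:**
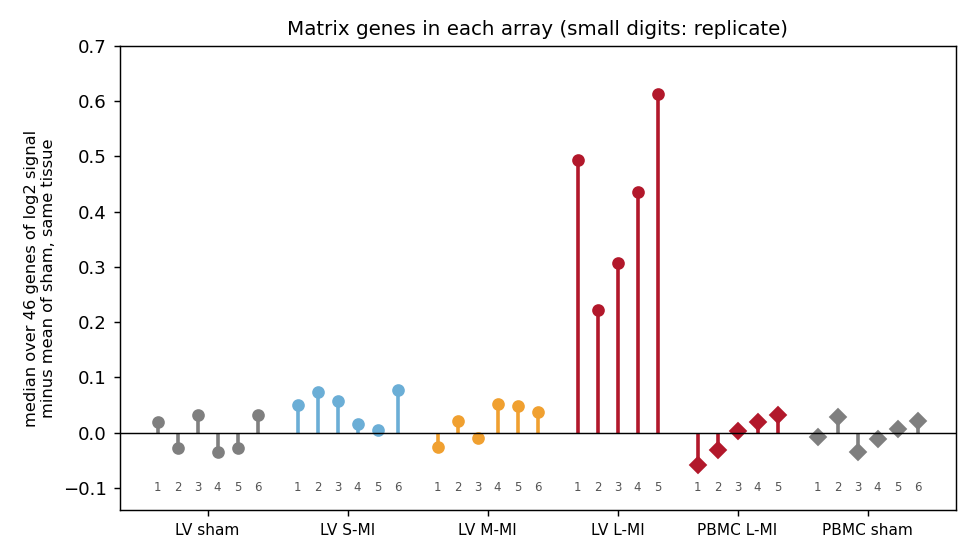
Median over the 46 matrix genes of the log2 signal minus the mean of the sham arrays of the same tissue, for each LV and PBMC array. The 5 LV L-MI arrays lie between 0.22 and 0.61 and every other array lies from -0.06 to 0.08.

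Markers of other cell types moved with L-MI in LV. All 9 macrophage markers were called higher (median log2 fold change 0.84), with a mean level of 8.69 to 9.35 in L-MI, against 8.13 to 8.39 in sham. Of 9 fibroblast markers 5 were called higher (Thy1, Col1a1, Col3a1, Col1a2 and Scara5, median of all 9 0.39), with a mean level of 8.88 to 9.41 in L-MI, against 8.39 to 8.63 in sham. Col1a1, Col1a2 and Col3a1 are themselves matrix genes. Pdgfrb (0.26) and Ddr2 (0.19) passed the adjusted p but not the fold threshold, and Pdgfra (0.13) and Tcf21 (0.12) passed neither. Of 7 smooth muscle and pericyte markers 2 were called higher (median 0.29, 9.999 to 10.26 in L-MI, against 9.76 to 9.99 in sham). Acta2 (0.30) and Cspg4 (0.29) of this list passed the adjusted p but not the fold threshold. Of the other lists, 0 of 8 cardiomyocyte (median -0.06), 0 of 7 endothelial (median -0.13) and 0 of 4 mesothelial markers were called. The cardiomyocyte level was 13.11 to 13.19 in L-MI, against 13.20 to 13.23 in sham. The endothelial level was 9.81 to 9.89, against 9.87 to 10.04, and the mesothelial level 6.44 to 6.73, against 6.35 to 7.02. Myh6 (-0.29), Ryr2 (-0.13), Tnni3 (-0.12) and Tek (-0.17) were lower at an adjusted p of at most 0.05 but stayed under the fold threshold. Among the L-MI arrays the fibroblast level was 9.15, 8.88, 8.89, 8.90 and 9.41 and the macrophage level 9.28, 8.69, 9.35, 9.01 and 9.14 in replicates 1 to 5. Their part in the rise of the matrix genes was not tested.

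Other genes of the same pathways were examined as lists. Of 9 measured further elastic fibre genes (16 listed), 4 were called higher in L-MI: the elastin and collagen cross-linking enzymes Loxl1 (log2 fold change 1.5 ± 0.15, adjusted p = 2.19e-06), Loxl2 (0.73 ± 0.08, adjusted p = 7.66e-06), Loxl3 (0.43 ± 0.06, adjusted p = 5.81e-05) and Lox (0.76, adjusted p = 7.36e-05), the last named after its value was seen. Of 10 further basement membrane genes (18 listed), 1 was called, Smoc1 (0.48, adjusted p = 0.000514), whereas Col4a1 (0.24) and Sparc (0.21), a collagen-binding matricellular gene, passed the adjusted p but not the fold threshold. Of 22 further proteoglycan and hyaluronan genes (27 listed), 2 were called, the hyaluronan receptor Lyve1 (0.98, adjusted p = 5.07e-05), which tissue macrophages also express, and Chad (0.72, adjusted p = 0.0351), named after its value was seen. Srgn (-0.23) and the hyaluronan receptor gene Cd44 (0.37) stayed under the fold threshold. Of 28 enzymes that build or trim glycosaminoglycan chains (33 listed), 5 were called higher, with Xylt1 (0.57, adjusted p = 4.41e-05), which starts the chains, Dse (0.40) and Chpf (0.51) at the smallest p, and then the sulphatases Sulf1 (0.49) and Sulf2 (0.49). No gene of these 4 lists was called lower, and the medians were 0.32, 0.10, 0.03 and 0.13 in this order.

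In PBMCs of rats with L-MI none of the 46 genes was called. The study gave a fold change and a p as thresholds there, and its sources differ on whether that p was adjusted. Here a fold change of 1.2 and an unadjusted p of 0.05 were used, and 0.924% of all transcript clusters passed them. The median log2 fold change was 0.01, with 24 genes above 0, against 47.3% of all transcript clusters, and 22 below 0. With the unadjusted p alone, 2 genes were lower and 1 higher in L-MI, against 2.06% and 1.71% of all transcript clusters, and the smallest adjusted p of the 46 genes was 0.9997. Aspn gave 3.89, 3.79, 3.96, 4.005 and 3.82 in L-MI, against 3.87, 4.03 and 4.16 in sham (log2 difference -0.14, two-sided exact permutation p = 0.0455 over 462 splits). Omd gave 3.69, 3.87, 4.10, 3.78 and 3.81 in L-MI, against 3.81, 4.10 and 4.23 in sham (-0.19, exact permutation p = 0.0801). Both genes lay far below the medians of the PBMC arrays (6.97 to 7.01), and whether PBMCs express them was not tested. The gene that was higher was Sdc1, with 7.85, 7.64, 7.49, 7.38 and 7.54 in L-MI, against 7.37, 7.42 and 7.48 in sham (0.16, exact permutation p = 0.0325), named after its value was seen. Without L-MI replicate 1 the log2 difference of Sdc1 was 0.09 (95% interval -0.03 to 0.22). All 3 overlapped between L-MI and sham, and their exact p-values were not adjusted for the 46 genes.

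Prg4 stood out in a single PBMC array. It gave 8.22, 7.57, 8.14, 8.09 and 10.53 in L-MI, against 7.58, 7.92 and 8.10 in sham, and the log2 fold change of 0.63 (95% interval -0.24 to 1.51) was not called. Without that array it was 0.13 (-0.18 to 0.43). The array with 10.53, L-MI replicate 5, also had the highest mean level of the macrophage markers, 9.06, against 7.74 to 8.19 in the other L-MI and 7.81 to 8.18 in the sham arrays. Their part in the Prg4 value was not tested.

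The L-MI effect was then compared between tissues by an interaction over 22 arrays, with a call at an adjusted p of at most 0.05. The labels do not say which LV and PBMC arrays share a rat, and arrays were taken as independent. For 18 genes the effect was higher in LV, against 1.39% of all transcript clusters, and for 1, Vtn, lower, against 1.16%. The effect in LV minus that in PBMCs was 1.44 for Fn1 (95% interval 1.01 to 1.86), 1.44 for Ltbp2 (1.07 to 1.80), 1.28 for Fbn1 (0.96 to 1.602) and 1.21 for Mfap5 (0.97 to 1.45). For Vtn it was -0.50 (-0.71 to -0.29). For Prg4 it was 0.15 with an interval from -0.81 to 1.11, which leaves a difference of either sign possible. Without PBMC L-MI replicate 5 it was 0.66 (0.19 to 1.12, adjusted p = 0.155), and without LV L-MI replicate 1 or PBMC L-MI replicate 2 it was -0.00 and -0.08. The calls of Bgn and Lamc1 were lost when any of 14 and any of 18 of the 22 arrays was left out, with adjusted p up to 0.0715 and 0.0951. Without LV L-MI replicate 1, 17 genes were called, and without PBMC L-MI replicate 1, 20. In PBMCs of sham-operated rats Mfap5 (5.53), Fbn1 (6.23), Ltbp2 (6.70) and Vtn (6.21) averaged below the medians of the PBMC arrays (6.97 to 7.01). Fn1 (11.87) averaged above them. Whether PBMCs express the genes with low signals was not tested, so a difference between tissues need not reflect a gene expressed in both.

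**Figure D4:**
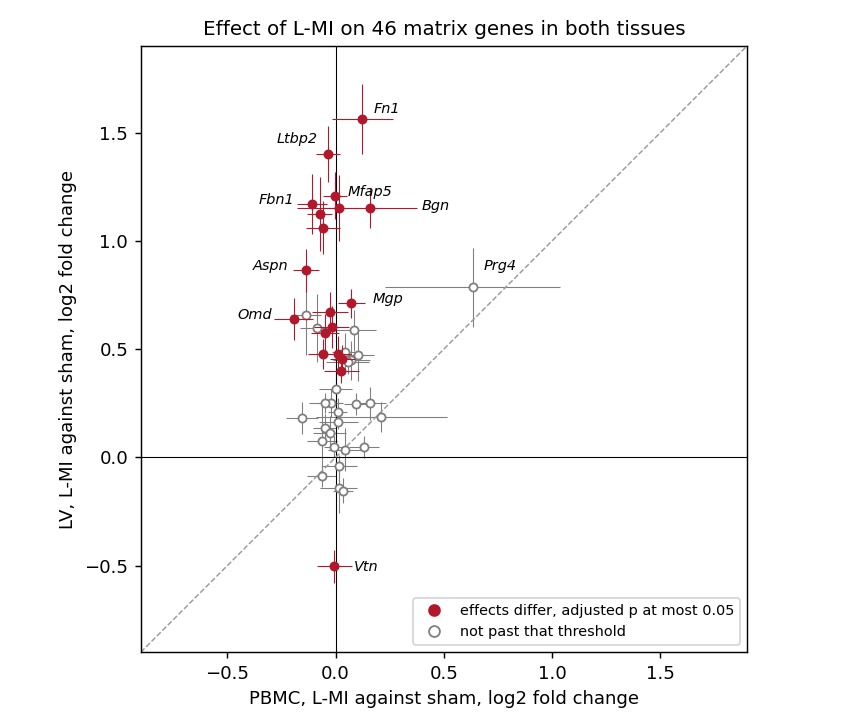
Log2 fold change of L-MI against sham for the 46 matrix genes in PBMCs (horizontal) and LV (vertical), with SE bars; filled points had effects that differ between tissues at an adjusted p of at most 0.05, and the dashed line marks equal effects. LV values run from -0.50 to 1.56 and PBMC values from -0.19 to 0.63, with Prg4 the point farthest right.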

How the data were processed

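The authors amplified and labelled material from total RNA for Affymetrix Rat Gene 1.0 ST arrays and deposited log2 signals made by RMA and the Partek Genomics Suite, per the labels and methods (versions not given in the sources used here). No source states the log base, and log2 was assumed because RMA gives it. The raw array files were not used, and no sample columns were left out. The precision is limited by the 5 or 6 arrays in a group. The labels call the arrays biological replicates.

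Models with a mean for each group were fitted in R 4.3.3 with limma 3.58.1 to all 29214 transcript clusters, separately for the 23 LV and 11 PBMC arrays, and jointly for the tissue interaction, with Benjamini-Hochberg adjustment. No filter on low signals was used. The methods name the thresholds but no test for the arrays, and for PBMCs no adjustment of p. The fits were tested on simulated data. Single PBMC genes were tested by an exact permutation of the difference in means. Figures were drawn with Python 3.11.15 and matplotlib 3.10.9.

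The members, lists, tests and alternatives were chosen with earlier results of these data known. Genes given in full (23) were the 3 with the smallest p of each class in L-MI, those called lower, the 2 with the smallest p in M-MI, S-MI and PBMCs, and 5 that the study also measured by RT-qPCR; values of further members are given by fold change, or in full where the text describes them. From each other list the 3 genes with the smallest p were named. Exceptions are marked, and Fmod and Ogn were given in more detail after their values were seen. Promoter windows and gene order come from RefSeq, build GRCr8. As alternatives, results were recomputed with each array left out in turn, with the replicate number as a block, and with quantile normalization repeated or arrays centred on their medians. Further runs left out the dimmest 30% of transcript clusters, or used array weights, limma-trend, an ordinary analysis of variance or only the groups compared in the fit. Others used the mean of all rows of a gene, other fold thresholds and, in PBMCs, the adjusted p. The mean of all rows could change no member, since each measured gene had 1 transcript cluster.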

Additional observations from a re-analysis of the deposited data

Results flagged for a closer look

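Of 138 groups of arrays (23 genes in 6 groups), 7 had a highest or lowest array far from the others by Dixon's test at the 95% level, where chance gives about 1 in 20 groups. These were Prg4 in LV of M-MI replicate 4 (8.03, nearest 7.05), Prg4 in PBMCs of L-MI replicate 5 (10.53, nearest 8.22), Lamc1 in LV of L-MI replicate 2 (10.61, nearest 10.83), Vtn in PBMCs of L-MI replicate 2 (6.504, nearest 6.15), Gpc1 in LV of sham replicate 5 (10.72, nearest 10.62), Eln in LV of sham replicate 4 (7.40, nearest 7.62) and Fbln2 in PBMCs of sham replicate 1 (6.58, nearest 6.38).

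The effect of L-MI differed between LV and PBMCs (limma interaction, adjusted p at most 0.05) for 15 of the 23 genes. Most of these 23 were chosen by a small p in LV, so the count is a description, and over all measured members it was 19 of 46 (18 higher and 1 lower in LV), against 1.39% and 1.16% of all transcript clusters. The log2 effect in LV minus that in PBMCs was 1.44 for Fn1, 1.44 for Ltbp2, 1.28 for Fbn1, 1.21 for Mfap5, 1.13 for Vcan, 1.12 for Fbln2, 1.002 for Aspn, 0.99 for Bgn, 0.83 for Omd, 0.70 for Prelp, 0.64 for Mgp, 0.53 for Ltbp3, 0.47 for Eln and 0.37 for Lamc1, and for Vtn it was -0.50. Of these genes only Fn1, Vcan, Bgn, Eln and Lamc1 averaged above the medians of the PBMC arrays in sham, and whether PBMCs express the others was not tested. The calls of Bgn and Lamc1 were lost when any of 14 and any of 18 of the 22 arrays was left out.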

How the results depend on the processing

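No count reversed its direction under any alternative run, and no gene given in full did so in LV of L-MI against sham. Leaving out 1 array did reverse small, uncalled differences of Prg4. Without M-MI replicate 4 its difference of M-MI from sham went from 0.10 to -0.08. Without PBMC L-MI replicate 2 its effect in LV minus that in PBMCs went from 0.15 to -0.08. With a fold threshold of 1.5, 17 of the 46 genes were called in L-MI against sham (17 higher, 0 lower, 1.2% of all transcript clusters), 14 against M-MI (0.89%) and 14 against S-MI (0.869%). Vtn, Eln, Mfap4, Efemp2, Ltbp3, Lum, Has2, Lamc1, Sdc2 and Aebp1 were then no longer called against sham. Without a fold threshold, 33 were called against sham (9.48% of all) and 3 in PBMCs (1 higher, 2 lower; 3.77%). With each array centred on its median, Lamc1 rose by 0.37 and fell under the fold threshold. The other alternatives gave 25 to 27 genes in L-MI against sham. Leaving out each array in turn gave 23 to 27 called genes in L-MI against sham (lowest without L-MI replicate 5), 22 to 26 against M-MI, 18 to 24 against S-MI and 17 to 23 for the difference between tissues, and 0 in M-MI or S-MI against sham, between them and in PBMCs.

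The labels number the replicates of each group. Over the LV groups, the deviations of same-numbered arrays from their group means correlated between -0.26 and 0.26. Between LV and PBMC arrays they correlated from 0.00 to 0.14 in sham and from -0.05 to 0.11 in L-MI. Such values cannot show whether a number marks a shared rat or batch, and the labels do not say. With the replicate number as a block, 27 genes were called in L-MI against sham, 25 against M-MI, 22 against S-MI and 0 in M-MI, S-MI and PBMCs. With LV and PBMC arrays of the same group and number taken as 1 rat, a block added after seeing the data, 17 genes differed between tissues. The number of arrays limits the precision, and a gene without a call, also one past a fold threshold, is not shown to be unchanged.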
